A study of Drosophila melanogaster with 10 samples.

Results

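The Imd and Toll pathways are the innate immune signalling routes of Drosophila, and 10 of their genes were followed across the thoraces of adult male flies with and without a gut tumor. The genes were Rel, imd, pirk, key and Dredd of the Imd pathway and Tl, spz, cact, Dif and nec of the Toll pathway. They were found by symbol among 17563 genes in the files, and all 10 were present and had reads in every library. Control flies carried esg-Gal4, tub-Gal80ts and UAS-GFP, and Esg>yki[S3A] flies carried in addition UAS-yki-act, an active form of the growth regulator Yorkie. The esg driver acts in the progenitor cells of the gut, so the transgene was not aimed at the thorax, and the temperature-sensitive Gal80 silences it at 18 °C. All flies were kept at 29 °C until day 14 (the tumor induction phase) and at 18 °C from then on (the shutdown phase). Control thoraces were sampled at days 2, 14 and 38 and Esg>yki[S3A] thoraces at days 2, 8, 14, 20, 26, 32 and 38, with 8 to 10 thoraces pooled per library.

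Each of the 10 conditions was 1 library. No difference therefore has a replicate check, no p-value was computed, and the 95% exact Clopper-Pearson intervals given with log2 ratios cover counting error only. Levels are in RPKM, the reads of a gene per kilobase of exon, scaled to the reads on genes in the library. A gene was counted as past 2-fold when its ratio exceeded 2 and the larger library had at least 2 RPKM.

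In the Imd pathway, peptidoglycan of bacterial cell walls engages receptors of the PGRP family, and the adaptor Imd recruits the caspase Dredd. Dredd and the IKK complex, of which Kenny (key) is the regulatory subunit, act on Relish (Rel), an NF-κB protein whose released amino-terminal part switches on genes of antimicrobial peptides such as the Diptericins. Pirk sequesters the receptors and Imd and is itself a target of the pathway, which makes it a negative feedback regulator. In the Toll pathway, a protease cascade in the hemolymph cleaves Spätzle (spz), which then binds the receptor Toll (Tl), and the serpin Necrotic (nec) restrains the cascade. Signalling from Toll leads to the destruction of Cactus (cact), the IκB protein that holds the NF-κB proteins Dif and Dorsal in the cytoplasm.

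The libraries held 14615109 to 38208955 reads on genes. Genes of the mitochondrial genome took 46.9% of them in the day 14 library of Esg>yki[S3A] flies and 24.3% to 32.5% in the other 9 libraries. Summed markers of flight muscle, the main tissue of the thorax, lay between 962 and 5045 RPKM. Digestive enzymes of the gut summed to 47.0 RPKM in the day 2 library of Esg>yki[S3A] flies and to 0.168 to 11.7 RPKM elsewhere. The transgene could not be told from the endogenous yki, whose level was 3.60 to 9.83 RPKM over all libraries, with the lowest value in Esg>yki[S3A] thoraces at day 2. In whole thoraces, fewer cells of a type and less RNA per cell cannot be told apart.

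**Figure D1:**
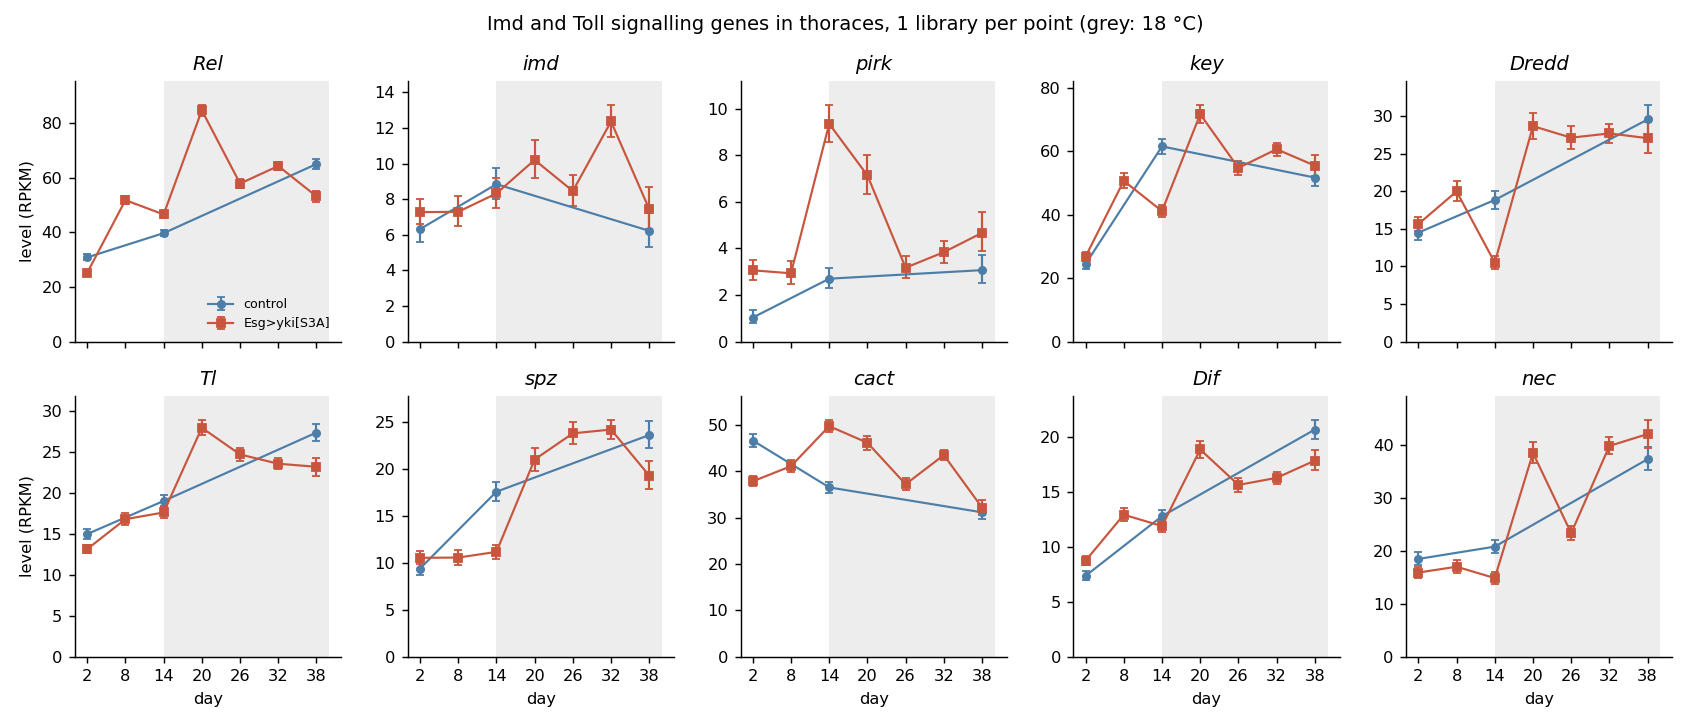
Level of each of the 10 genes (RPKM, linear axis from 0) against day in control (blue circles) and Esg>yki[S3A] thoraces (red squares), 1 library per point, with 95% counting intervals; the grey area is the time at 18 °C. pirk reached 9.35 RPKM in Esg>yki[S3A] thoraces at day 14, whereas Rel, key, Tl and Dif were at their highest Esg>yki[S3A] level at day 20.

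The receptor-proximal adaptor imd (2R, 18409796 to 18413599, minus strand, Release 6 assembly) varied little. In control thoraces imd stood at 6.32, 8.84 and 6.22 RPKM at days 2, 14 and 38, and in Esg>yki[S3A] thoraces at 7.27, 7.29, 8.32, 10.2, 8.46, 12.4 and 7.44 RPKM from day 2 to day 38. The genotypes were interleaved, and in 8 of the 9 neighbouring pairs in the order of its levels the counting intervals overlapped. The highest value, at day 32, was 1.99-fold the lowest. At matched days its ratio of Esg>yki[S3A] to control was 0.20, -0.09 and 0.26 on the log2 scale, and each of these intervals included 0.

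The IKK subunit key (2R, 24785514 to 24787411, minus strand) was among the most abundant of the 10 genes. Its level was 24.5, 61.5 and 51.7 RPKM in control thoraces at days 2, 14 and 38. The 7 Esg>yki[S3A] libraries gave 26.8, 50.7, 41.1, 71.7, 54.8, 60.7 and 55.5 RPKM. Both day 2 libraries were thus the lowest, with less than 27 RPKM, and every later library exceeded 41 RPKM. In control thoraces key was past 2-fold higher at day 14 than at day 2 (log2 ratio 1.33, interval 1.23 to 1.44), whereas in Esg>yki[S3A] thoraces the ratio was 0.62.

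Scaled to library totals, the caspase gene Dredd (X, 633622 to 635545, minus strand) had its lowest level of all 10 libraries in Esg>yki[S3A] thoraces at day 14. Control thoraces had 14.5, 18.8 and 29.5 RPKM at days 2, 14 and 38. In Esg>yki[S3A] thoraces Dredd had 15.6, 19.97 and 10.5 RPKM at days 2, 8 and 14 and then 28.6, 27.1, 27.7 and 27.0 RPKM at days 20, 26, 32 and 38. Every library of the shutdown phase therefore lay above every library of the induction phase. Between day 14 and day 20 the level was 1.45 higher on the log2 scale (interval 1.3 to 1.59), and over the 4 tumor libraries at 18 °C it stayed within 27.0 to 28.6 RPKM. With nuclear protein-coding scaling, control day 2 was the lowest library for Dredd (13.5 RPKM, against 14.0 in Esg>yki[S3A] thoraces at day 14).

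Rel (3R, 9044183 to 9047977, minus strand), the NF-κB protein of the pathway, was the most abundant of the 10 genes in 5 libraries. It stood at 30.9, 39.7 and 65.0 RPKM in control thoraces at days 2, 14 and 38. Esg>yki[S3A] thoraces had 25.2, 51.8, 46.6, 84.7, 57.9, 64.3 and 53.2 RPKM. The order of the genotypes changed with the day: compared with controls, Rel in tumor-bearing flies was lower at day 2 (-0.29, interval -0.36 to -0.22) and at day 38 (-0.29, -0.36 to -0.22), and higher at day 14 (0.23, 0.17 to 0.29). None of these differences was past 2-fold. With 2720 to 8594 reads per library its levels were finely resolved, and only 2 of 9 neighbouring pairs in the order overlapped.

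The feedback inhibitor pirk (2R, 21660967 to 21662995, minus strand) differed most between the genotypes. It was the rarest of the 10 genes in every library but the tumor library of day 14, where imd was lower, with 56, 155 and 105 reads in control thoraces at days 2, 14 and 38 and 212, 140, 545, 301, 168, 271 and 126 reads in the Esg>yki[S3A] series. These reads correspond to 1.04, 2.703 and 3.07 RPKM in control and to 3.06, 2.94, 9.35, 7.13, 3.17, 3.84 and 4.67 RPKM in Esg>yki[S3A] thoraces. Days 14 and 20 stood apart in the tumor series, and at each matched day the Esg>yki[S3A] library was the higher one. The range of pirk over all libraries was 9.02-fold, and 8.96-fold and 12.8-fold with TMM and nuclear protein-coding scaling; under each of the 3 it was the widest of the 10 genes.

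On the Toll side, the serpin gene nec (2R, 7156477 to 7158241, minus strand) had 18.5, 20.8 and 37.3 RPKM in control thoraces. The Esg>yki[S3A] libraries had 15.9, 17.0 and 14.8 RPKM up to day 14 and 38.5, 23.3, 39.8 and 42.0 RPKM at days 20, 26, 32 and 38. Day 26 was the lowest of the libraries at 18 °C, yet above all libraries at 29 °C.

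The ligand gene spz (3R, 27064990 to 27070070, minus strand) had nearly one level in the tumor induction phase, with 10.5, 10.6 and 11.2 RPKM at days 2, 8 and 14. At days 20, 26, 32 and 38 it stood at 21.0, 23.8, 24.2 and 19.3 RPKM. In control thoraces spz had 9.40 RPKM at day 2, 17.6 RPKM at day 14 and 23.6 RPKM at day 38. Controls at day 14 were thus above the tumor library of that day, with a log2 ratio of -0.65 (interval -0.78 to -0.53). Its receptor Tl (3R, 26799041 to 26842403, plus strand) had 15.0, 19.0 and 27.3 RPKM in control thoraces. In Esg>yki[S3A] thoraces Tl had 13.1, 16.8, 17.6, 27.9, 24.7, 23.5 and 23.2 RPKM. The genotypes were close at each matched day, with log2 ratios of -0.19, -0.11 and -0.24.

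The inhibitor cact and the NF-κB protein Dif it retains went in opposite directions over the days in control thoraces. cact (2L, 16313036 to 16326207, minus strand) had 46.6, 36.5 and 31.1 RPKM in control thoraces and 37.8, 41.1, 49.7, 46.1, 37.2, 43.5 and 32.2 RPKM in the Esg>yki[S3A] series. It was highest in the tumor library of day 14. Dif (2L, 17413248 to 17433161, minus strand) had 7.37, 12.8 and 20.7 RPKM in control and 8.74, 12.9, 11.9, 18.9, 15.6, 16.3 and 17.9 RPKM in Esg>yki[S3A] thoraces. The RPKM ratio of cact to Dif was 6.33, 2.85 and 1.51 in control thoraces at days 2, 14 and 38. In Esg>yki[S3A] thoraces it was 4.33, 3.18, 4.18, 2.45, 2.38, 2.67 and 1.80, so the inhibitor was always the more abundant transcript per length. Being a ratio within a library, this quantity does not depend on the scaling of the libraries. Dorsal (dl), the other NF-κB protein bound by Cactus, ranged from 10.1 to 36.9 RPKM and was highest in Esg>yki[S3A] flies at day 20. Among the 6 genes that share exon bases with a neighbour, by 5 to 252 bases, Dif shared the most (with CG15141), and whether the counting used strand is not given in the sources used here.

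The comparison of genotypes at matched days asks how thoraces of tumor-bearing flies differ from those of controls. At day 14, the end of tumor induction, pirk was 3.46-fold higher in Esg>yki[S3A] thoraces (log2 ratio 1.79, interval 1.53 to 2.06) and was the only one of the 10 genes past 2-fold. Of all 8368 genes with enough reads, 2.99% were past 2-fold higher and 17.0% past 2-fold lower, and the median log2 ratio of all genes was -0.36. Of the 10 genes, 3 were above 0 (pirk, cact at 0.45 and Rel at 0.23) and 7 below it, with a median of -0.11. The lowest were Dredd at -0.84 (interval -0.99 to -0.69), spz at -0.65 and key at -0.58. For imd, Tl and Dif (-0.09, -0.11 and -0.11) the direction at day 14 turned positive under each of the 3 other scalings, which give the mitochondrial reads or the most abundant genes less weight. pirk lay between 2.09 and 2.23 and Dredd between -0.54 and -0.40 under these scalings.

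At day 2 pirk was 2.96-fold higher in Esg>yki[S3A] thoraces (log2 ratio 1.56, interval 1.13 to 2.02) and again the only gene of the 10 past 2-fold, among 8093 genes of which 3.68% were past 2-fold higher and 0.951% lower. The count rests on 56 reads of pirk in the control library, and with 1 RPKM added to both libraries the ratio was 0.997 and no longer counted. The tumor library of day 2 was also the one with the most gut enzyme reads (47.0 against 8.22 RPKM in control). Of 5 gut enzyme genes with enough reads, 4 were past 2-fold higher and 1, Amy-p, was lower (1.41 against 7.82 RPKM). The part of gut tissue in the ratio of pirk was not tested. The other 9 genes lay between -0.30 (cact) and 0.25 (Dif). At day 38, after 24 days at 18 °C, none of the 10 was past 2-fold, with 3.79% of 8551 genes past it higher and 1.53% lower. pirk was still the highest of the 10 at 0.60 (interval 0.22 to 0.99), and the others lay between -0.29 (Rel and spz) and 0.26 (imd).

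**Figure D2:**
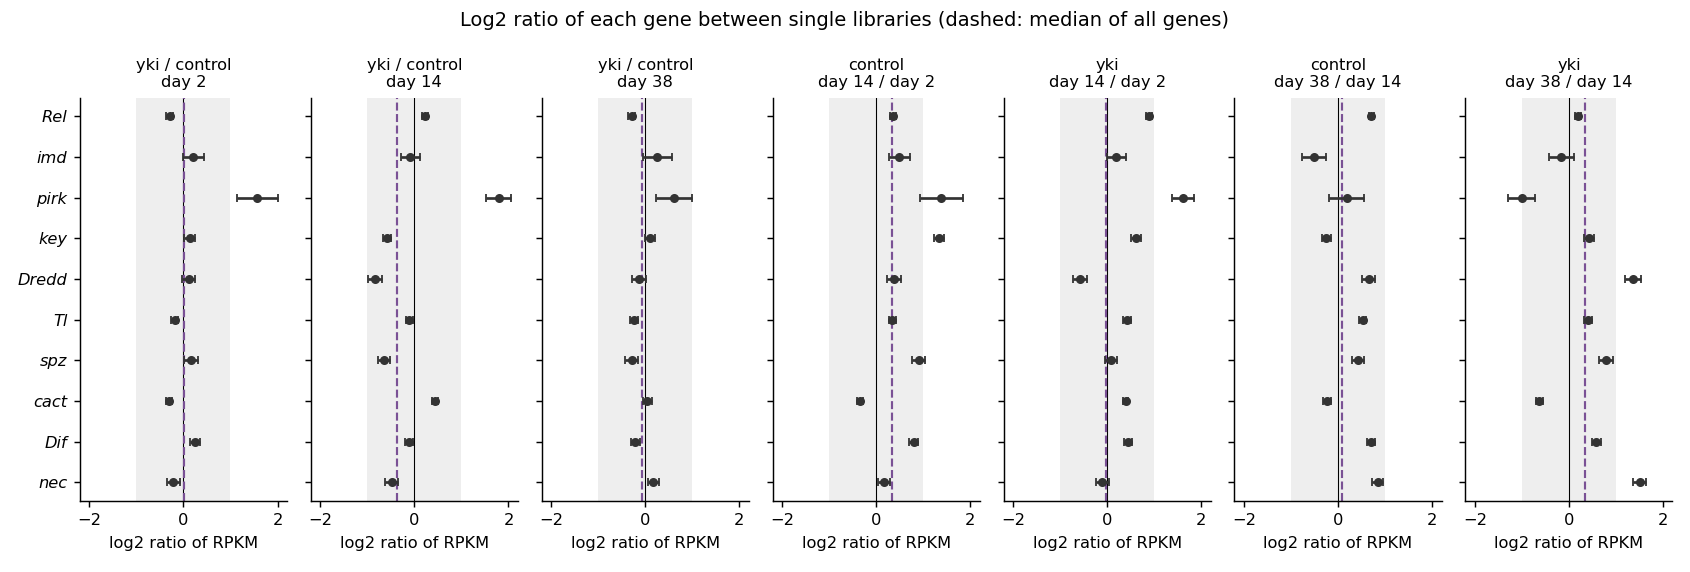
Log2 ratio of RPKM between the 2 single libraries of each of 7 comparisons (columns) for the 10 genes (rows); bars are 95% counting intervals, the grey band is the range within 2-fold, the solid line is 0 and the dashed line the median of all genes. pirk lay outside the band in both comparisons with day 2 and in the genotype comparisons of days 2 and 14; at day 38 over day 14 in the tumor series its value was -1.001, at the edge.

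Over the induction phase, from day 2 to day 14, pirk was past 2-fold higher in both genotypes. The log2 ratio was 1.61 (interval 1.38 to 1.85) in Esg>yki[S3A] and 1.38 (0.93 to 1.85) in control thoraces. In Esg>yki[S3A] thoraces pirk was the only such gene of the 10, and 12.8% of all genes tested were past 2-fold higher and 19.0% lower. In control thoraces pirk and key were past it, against 15.3% of all genes higher and 4.83% lower, and the median of all genes was 0.34. The control ratio of pirk rested on 56 reads at day 2. With 1 RPKM added to both libraries it was 0.86 and no longer counted. Rel had a ratio of 0.89 (0.82 to 0.95) in Esg>yki[S3A] and 0.36 (0.30 to 0.43) in control thoraces. In the tumor series the 2 genes followed different courses, with Rel at 51.8 RPKM and pirk at 2.94 RPKM by day 8, so the difference in Rel was already present at day 8 and the one in pirk lay between days 8 and 14.

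From day 14 to day 38, Dredd and nec were past 2-fold higher in Esg>yki[S3A] thoraces, with log2 ratios of 1.36 (interval 1.2 to 1.53) and 1.501 (1.36 to 1.64). pirk was lower, at -1.001 (-1.29 to -0.72), and only just past the threshold. Among all genes 22.0% were past 2-fold higher and 5.73% lower, with a median of 0.35, so ratios of this size were common in that comparison. Which genes were past 2-fold depended on the scaling. With TMM factors and with nuclear protein-coding reads, Dredd was no longer counted (0.95 and 0.90) and cact was past 2-fold lower (-1.04 and -1.09), whereas nec and pirk were counted under all 4 scalings. All genes were then more evenly divided, with 12.1% higher and 12.8% lower under TMM. In control thoraces none of the 10 was past 2-fold over these days, with 7.79% of all genes higher and 8.95% lower. The control ratios nearest to it were those of nec at 0.84, Rel at 0.71, Dif at 0.69 and Dredd at 0.65. The interval between days 14 and 20, across the shift to 18 °C, held 8 of the 10 genes higher beyond counting error and 2 lower (pirk at -0.39 and cact at -0.11), with a median of 0.73 against 0.42 for all genes. Of all genes tested, 65.7% were higher beyond counting error in this step and 15.0% lower, so most genes shared that direction.

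**Figure D3:**
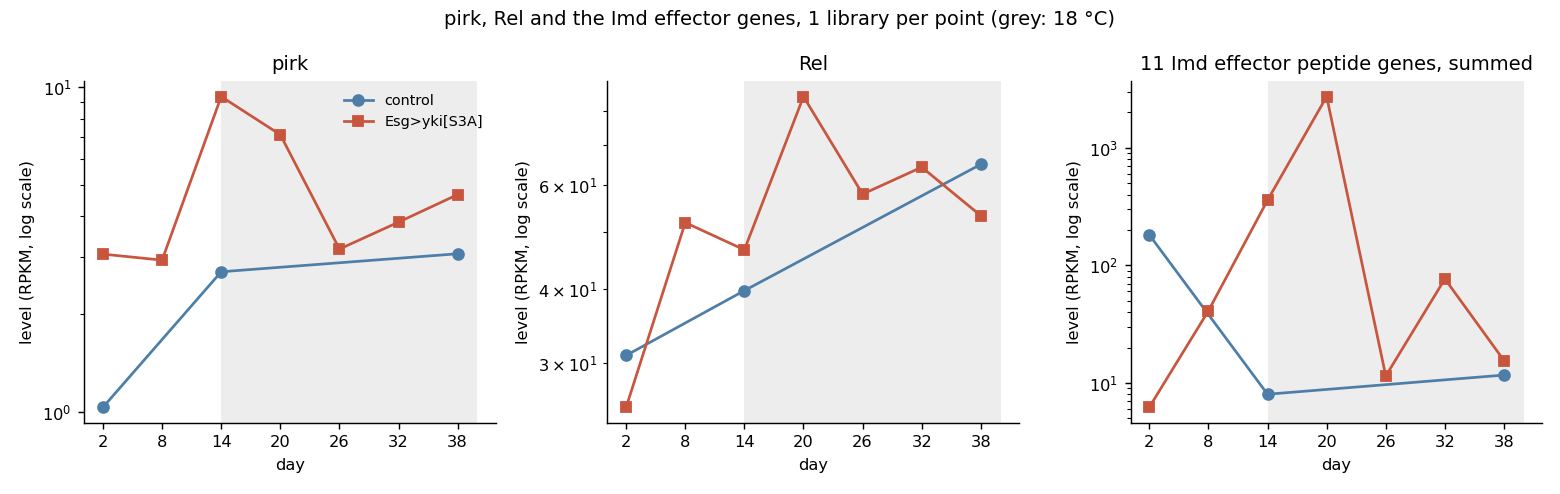
Levels of pirk, Rel and the summed 11 Imd effector peptide genes (RPKM, log axes) against day in control (blue circles) and Esg>yki[S3A] thoraces (red squares), 1 library per point; the grey area is the time at 18 °C. The effector sum was highest at day 20 in the tumor series (2722 RPKM), pirk at day 14, and control thoraces at day 2 joined the lowest pirk level with an effector sum of 182 RPKM.

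The pathway's output genes were read in the same libraries. The RPKM of 11 Imd effector peptide genes (Diptericins, Attacins, Cecropins and Drosocin) summed to 182, 8.01 and 11.7 in control thoraces at days 2, 14 and 38. In Esg>yki[S3A] thoraces the sums were 6.21, 41.0, 358, 2722, 11.5, 76.6 and 15.5. Rel, key, Tl and dl had their highest level of all libraries at day 20, where the effector sum was also highest, although for Tl the counting interval overlapped that of control day 38, while pirk was at its highest at day 14. In control thoraces at day 2 the effector sum was the third highest of the 10, yet pirk had its lowest level there (1.04 RPKM). The ratio of the effector sum to pirk accordingly ran from 2.03 to 382 over the libraries. At day 14, 9 of 9 Imd effector genes with enough reads were past 2-fold higher in Esg>yki[S3A] thoraces, beside 2.99% of all genes. The largest was DptA, with 2735 reads against 7. At day 2, by contrast, 7 of 7 were past 2-fold lower, beside 0.951% of all genes lower and 3.68% higher. Of the genes listed as Toll effectors, 9 of 12 with enough reads were past 2-fold lower at day 2 and none higher. The sums were 786 against 4032 RPKM, and that control library had the highest Toll effector sum of the 10. Controls at days 14 and 38 had 1172 and 1271 RPKM, and the Esg>yki[S3A] libraries 786 to 1648 RPKM. Of 13 Toll effector genes at day 14, 3 were past 2-fold higher and 3 lower, beside 2.99% and 17.0% of all genes. The higher ones were Def and Mtk, antimicrobial peptide genes that also answer to Imd signalling, and the Bomanin gene BomS3. The lower ones were the Bomanin genes BomBc1, BomBc2 and BomBc3.

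The libraries of the shutdown phase were above those of the induction phase for 6 of the 10 genes, without overlap: Rel, Dredd, Tl, spz, Dif and nec. This grouping of 5 libraries at 29 °C and 5 at 18 °C was made after the values were seen. Temperature, age and the activity of Gal4-driven transgenes cannot be told apart in it, since every library at 18 °C was made later. The control libraries, which carry UAS-GFP but no UAS-yki-act, also had each of these 6 genes highest at day 38. The part of each factor was not tested. Among 9233 genes with at least 2 RPKM in some library, 9.55% had all 18 °C libraries above all 29 °C libraries and 1.90% had them below. spz had 9.40 to 17.6 RPKM at 29 °C and 19.3 to 24.2 RPKM at 18 °C. nec had 14.8 to 20.8 RPKM at 29 °C and 23.3 to 42.0 RPKM at 18 °C. Rel had 25.2 to 51.8 RPKM and 53.2 to 84.7 RPKM, with a narrow gap between the groups. cact was the only one of the 10 with a lower median at 18 °C (37.2 against 41.1 RPKM), and its groups overlapped.

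The separation depended on how the libraries were scaled. It held for 3 genes with TMM factors (Dredd, spz and Dif), for 4 with the median of ratios (Dredd, Tl, spz and Dif) and for 3 with totals of nuclear protein-coding reads (Dredd, spz and nec), so that only Dredd and spz kept it under all 4 scalings. The share of all genes with this order was 4.50%, 4.62% and 5.41% under these scalings. Summed fat body markers were 804 to 2358 RPKM at 29 °C and 1840 to 2466 RPKM at 18 °C, and their part in the order of the levels was not tested.

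**Figure D4:**
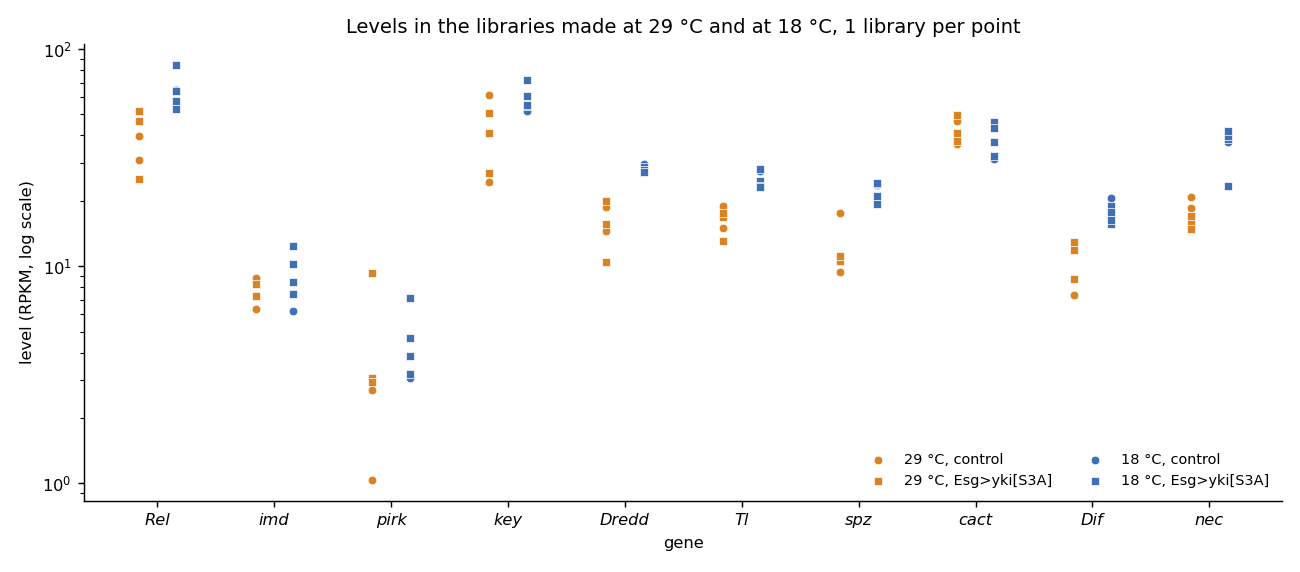
Levels of the 10 genes (RPKM, log axis) in the 5 libraries made at 29 °C (orange) and the 5 made at 18 °C (blue); circles are control and squares Esg>yki[S3A] libraries. The 2 groups do not overlap for Rel, Dredd, Tl, spz, Dif and nec, of which only Dredd and spz kept this order under each of the other scalings.

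A wider list of 65 genes of the pathways, effector genes left out, was read in the same way. At day 14, 51 of them had enough reads, and 1 was past 2-fold higher and 5 lower relative to controls, beside the 2.99% and 17.0% of all genes. The median of these 51 was -0.13. The split depended on the scaling: 2 were higher and 2 lower with TMM factors (all genes 6.29% and 8.16%) and with the median of ratios (5.58% and 8.85%), and 5 were higher and 1 lower with nuclear protein-coding reads (8.48% and 6.55%). PGRP-LF above and GNBP3 below were counted under all 4 scalings. With library totals, none of the signalling genes was past 2-fold between genotypes at day 2 (50 genes) or at day 38 (54 genes). Of all genes, 3.68% were higher and 0.951% lower at day 2, and 3.79% higher and 1.53% lower at day 38. Under each of the 3 other scalings PGRP-SD was past 2-fold higher at day 38. The following genes were singled out after their values were seen. The gene past 2-fold higher at day 14 was PGRP-LF, a receptor-like protein that dampens Imd signalling. It had 12.8 against 6.34 RPKM (log2 ratio 1.01, interval 0.80 to 1.23), and it reached 23.1 RPKM at day 20. trbd, a deubiquitinase that limits Imd signalling, was lower (39.0 against 80.2 RPKM, -1.04), and was counted only on the scale of the library total.

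The other 4 lower genes encode proteins upstream of Spätzle in the Toll cascade: the recognition protein GNBP3 (-1.52) and the serine proteases modSP (-1.25), grass (-1.26) and SPE (-1.36), the enzyme that cleaves Spätzle. The 10 genes of this list with enough reads had a median of -0.83, and PGRP-SD stood at 21.8 against 11.8 RPKM in the other direction, past 2-fold under each of the 3 other scalings. SPE was counted with TMM and the median of ratios as well, and modSP and grass only with the library total. SPE had 135, 118 and 88.2 RPKM in control thoraces, and in Esg>yki[S3A] thoraces 122, 87.3, 46.0, 70.8, 99.2, 134 and 89.8 RPKM, so day 14 was the low point of its series. From day 2 to day 14 within Esg>yki[S3A] thoraces, 6 of the 10 were past 2-fold lower, beside 19.0% of all genes, and in control thoraces none was, beside 4.83%. With nuclear protein-coding reads 2 of the 10 were lower and 1 higher, beside 11.9% and 25.9% of all genes. By day 38, 4 of the 10 were past 2-fold higher than at day 14, beside 22.0% of all genes. Under each other scaling 2 were (grass and psh), beside 11.3% to 13.4% of all genes. The adaptors and kinases below Toll had a median of 0.13 at day 14 and no gene of 8 past 2-fold, or 1 (Pli, higher) with nuclear protein-coding reads.

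Of the fat body markers with enough reads, 5 of 5 were past 2-fold lower than in controls in the tumor library of day 14 (804 against 2358 RPKM). From day 2 to day 14 in control thoraces, 4 of 5 were past 2-fold higher (871 to 2358 RPKM), beside 15.3% of all genes. The Toll recognition list had a median of -0.30 over these control days. At day 14 flight muscle markers were past 2-fold lower for 3 of 5 (1041 against 5045 RPKM) and hemocyte markers for 2 of 7 (133 against 153 RPKM). Of all genes, 17.0% were past 2-fold lower in that comparison. Neuron markers went the other way in sum (69.4 against 46.3 RPKM), with none past 2-fold. The marker counts were made on the scale of the library total only. The part of these tissues in the ratios of the signalling genes was not tested.

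**Figure D5:**
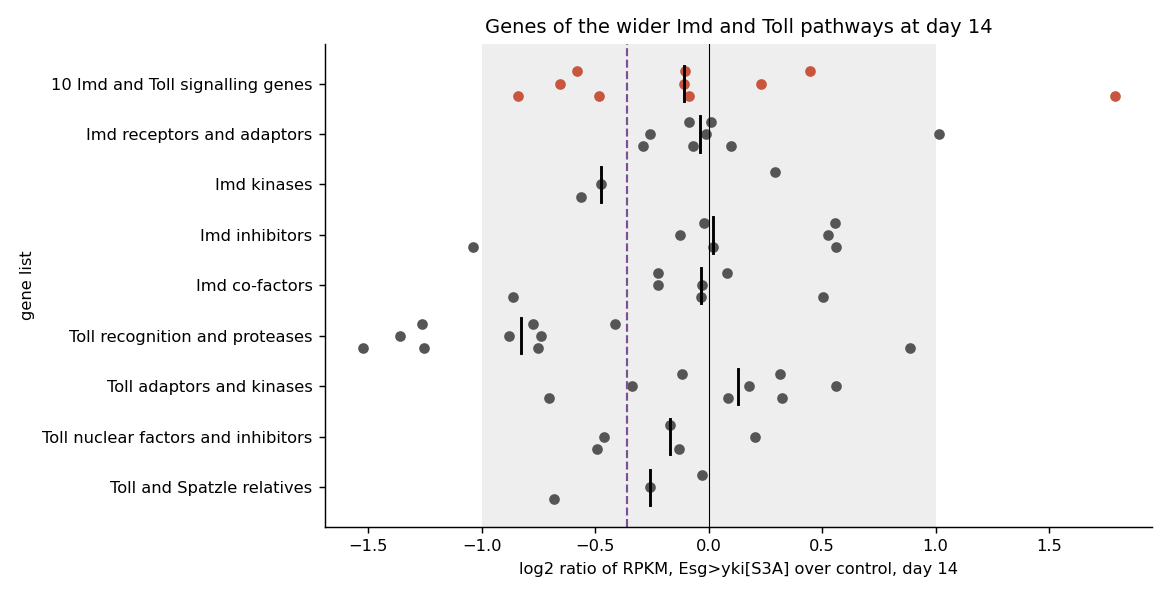
Log2 ratio of RPKM in Esg>yki[S3A] over control thoraces at day 14 for the 10 genes (red) and for the 51 genes of the wider lists that had enough reads (grey), 1 gene per point; black bars are list medians, the grey band is the range within 2-fold and the dashed line is the median of all genes. On this scale of library totals the point at 1.79 is pirk, and the 4 points left of the band in the Toll recognition list are GNBP3, SPE, grass and modSP.

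The 10 genes were compared with each other over the 10 libraries by Pearson's r of log2(RPKM + 1), given as a description because the libraries form time series and share their scaling. Of 45 pairs, 19 had r above 0.7 and 8 had r below 0, with a median of 0.51. Tl and Dif were the most alike (0.94), and Rel and Tl had 0.92. cact stood apart, with -0.54 to Dredd, -0.45 to spz and -0.44 to Dif. Among 9233 genes, the 3 with the course most like Rel were Abi, Pvr and crb (0.98 each), and each of these also had its highest level at day 20 in Esg>yki[S3A] thoraces. Those most like pirk were CG14989 (0.96), CG6005 (0.93) and igl (0.93). For cact they were CG45080 (0.90), MESK2 (0.89) and CG7016 (0.87), for Dif TH1, ClC-b and PolZ1 (0.99 each) and for Tl GstD2 (0.98), CG6701 (0.97) and CG42327 (0.97).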

How the data were processed

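RNA of pooled thoraces was sequenced after rRNA depletion, in 4 pools per library of single 75-base reads. Alignment by the authors used STAR 2.7.2b and FlyBase release 6.30. The counting program and its handling of strand and of shared reads are not given in the sources used here. The authors deposited estimated counts per gene in multiples of 0.25, as means over the 4 pools would be, and 4 times the value was taken as the reads, which is assumed and not stated. Reads were divided by the library total on genes and by the merged exon length (Ensembl release 115, the same assembly), giving RPKM; 57 genes without a length (0.0760% of reads) were left out. Libraries were compared singly by log2 ratios without a pseudocount, with exact Clopper-Pearson intervals of the reads, in Python 3.11.15 with scipy 1.17.1. Other scalings used edgeR 4.0.16 (TMM) and DESeq2 1.42.0 (median of ratios). The counting rule was tested on reads simulated with counting error only. That test does not cover variation between libraries of the same condition, or genes with few reads.

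The 10 genes and the lists were chosen with earlier results of these data known. All 10 were named. Of the wider lists, those past 2-fold between genotypes at day 14 or from day 2 to day 14 in the tumor series were eligible, at most the 12 largest per comparison. For likeness, the 3 genes with the highest r were named for Rel, pirk, cact, Dif and Tl. Alternatives were pseudocounts of 0.1 and 1 RPKM, other scalings, minimums and thresholds, and neighbouring libraries. A search of promoters for κB motifs was not run here.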

Additional observations from a re-analysis of the deposited data

Results flagged for a closer look

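For 3 genes the change over days had opposite directions in the 2 genotypes, in 1 library per condition, and the difference was not tested. How many of all genes had opposite directions was not counted, so the number is no result about these genes. The median of all genes from day 2 to day 14 was -0.02 with the tumor and 0.34 in controls. From day 14 to day 38 it was 0.35 and 0.07. From day 2 to day 14, the log2 ratio of Dredd was -0.57 with the tumor and 0.38 in controls, a difference of -0.95. The control value lay 0.04 above the median of all genes and was 0.02 under TMM. With nuclear protein-coding scaling the tumor value of Dredd was -0.15. The log2 ratio of cact was 0.39 with the tumor and -0.35 in controls over the same days, a difference of 0.75. From day 14 to day 38, that of key was 0.43 and -0.25, a difference of 0.68, and the Esg>yki[S3A] value of key was -0.03 under scaling to nuclear protein-coding reads.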

How the results depend on the processing

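No paired analysis was possible because each condition was 1 library, and for the same reason no replicate could be left out. Against a count of 1 gene past 2-fold at day 2 between genotypes, a pseudocount of 1 RPKM and a minimum of 5 RPKM each gave 0. At day 14, against 1, the library of day 8 in place of day 14 gave 0 and that of day 20 gave 2 (Rel and pirk). In the tumor series between days 2 and 14, against 1, scaling to nuclear protein-coding reads gave 3, beside 25.9% of all genes higher. The day 20 library gave 6, with a median of all genes of 0.42. In control thoraces, against 2, a pseudocount of 1 RPKM and a minimum of 5 RPKM each gave 1, which was key and not pirk. TMM, the median of ratios and ratios less the median of all genes each gave 1, which was pirk, key being just under the threshold with TMM (0.98). With a threshold of 1.5-fold the counts were 3 (day 14), 1 (day 38), 3 (day 2 to day 14, tumor), 4 (the same, control), 6 (day 14 to day 38, tumor) and 4 (the same, control). The gene pirk at -1.001 from day 14 to day 38 was not counted with either pseudocount; Dredd gave way to cact under TMM and under the nuclear protein-coding scaling. The 6 genes with separated 18 °C and 29 °C libraries became 3 under TMM and 3 under the nuclear protein-coding scaling, and were 6 without control day 2, Esg>yki[S3A] day 2 or Esg>yki[S3A] day 20, and 7 without Esg>yki[S3A] day 14, where pirk joined; these settings and the ratios less the median were chosen after seeing the data. Of 70 ratios, 7 changed sign with TMM, 6 with the median of ratios and 7 with nuclear protein-coding reads, and none with a pseudocount. The Toll recognition genes past 2-fold, 4 at day 14, 6 between days 2 and 14 and 4 between days 14 and 38 of the tumor series, were 2, 3 and 2 with nuclear protein-coding reads, and the last count was 2 with TMM and 2 with the median of ratios (added after seeing the data). Shares of all genes for the Toll recognition counts are given with the results above. The widest counting intervals were those of pirk, from 56 reads upwards.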
